A study of Rattus norvegicus with 8 samples.

Results

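The microRNAs (miRNAs) described here are the rat miRNAs whose registry number is 3000 or higher. They were chosen by name from a microarray of the renal cortex, with miR-3584-5p left out. There were 110 of them among the 758 rat miRNAs on the array. The number cut used no measured value, but the set and its exception were chosen with earlier results of these data known. The cortex came from male rats in 4 groups, with 2 arrays in each. SHAM rats were sham-operated and ate a diet with 0.50% sodium. UNX rats were nephrectomized, ate the same 0.50% sodium diet and received the oil vehicle. DOCA rats were nephrectomized, ate a diet with 1.5% sodium, and were injected under the skin with the mineralocorticoid deoxycorticosterone acetate (DOCA), 8 mg/kg in soybean oil, 2 times a week. They also received an intravenous vehicle every week from week 2 after surgery. DOCA-EVs rats had the same surgery, diet and DOCA, with extracellular vesicles of adipose mesenchymal cells in the weekly injection in place of the vehicle. Nephrectomy was shared by UNX, DOCA and DOCA-EVs, whose cortex was taken 9 weeks after it, and the sodium-rich diet and DOCA were always given together. The labels do not say whether the 2 arrays of a group held RNA of different rats, so p-values measure the spread between arrays.

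A miRNA is a short RNA cut from a hairpin precursor, which can release a product from each arm (5p and 3p). It guides a silencing complex to messenger RNAs, mainly by pairing through its seed, which is bases 2 to 8 from its 5′ end. Registry numbers follow the order of naming, so the highest numbers were given late, mostly to sequences found by deep sequencing. Many of these names are known from rodents only, and some lie on the strand opposite a long-known miRNA gene, as mirror miRNAs. DOCA with salt after nephrectomy is a standard model of volume-dependent hypertension with renal inflammation and fibrosis.

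Mature sequences are shown in 2 sets. The first set holds miRNAs detected on all 8 arrays, in RefSeq's rat sequences (assembly GRCr8), with the seed in capitals. Of the 110 names, 97 matched 1 mature sequence there, among them all 24 that were detected on any array.
miR-3473: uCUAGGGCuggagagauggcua
miR-6216: gAUACACAgaggcaggaggagaa
miR-6215: uUUAGGGUugcagagccagg
miR-3068-3p: gGUGAAUUgcaguacuccaaca
miR-3084a-3p: uUCUGCCAguccccuucagaca
miR-3102: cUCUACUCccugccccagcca
miR-3550: cCGAGCCCaucccugcccuag
miR-3562: uUGGGGCAguggcuggauggga
miR-3573-3p: uUCCUAACucugcccccucccau

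The second set holds detected miRNAs that are the reverse complement of another rat miRNA. Each is followed by its partner, with the run of complementary bases in capitals, also from RefSeq GRCr8.
miR-3574: UCAGCCGCUGUCACACGCACAG
miR-210-3p: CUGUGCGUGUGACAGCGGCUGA
miR-3588: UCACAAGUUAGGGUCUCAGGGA
miR-125b-5p: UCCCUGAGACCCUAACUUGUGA
miR-3591: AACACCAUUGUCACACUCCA
miR-122-5p: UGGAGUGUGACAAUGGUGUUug
miR-3596c: ACUAUACAACCUCCUACCUCA
let-7e-5p: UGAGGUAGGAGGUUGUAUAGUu

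Seeds were not shared among the detected miRNAs. Of the 24, miR-3084a-3p alone had the seed of another mature rat miRNA in the table, its relative miR-3084d, and the seeds of the others were found in no other mature sequence there. The median share of G and C was 54.5% in the 24 detected sequences and 47.8% in the 73 matched sequences that were detected on no array. Among miRNAs with lower numbers these medians were 47.8% in 236 detected and 47.6% in 351 undetected sequences. The sequence of miR-3473 resembles a short interspersed repeat of rodent genomes. A run of any 16 consecutive bases of it, searched on both strands, occurred in 95 of 33469 rat promoters of 300 bases (0.284%). miR-6316 had such runs in 4 promoters and miR-6216 in 0, which says only that these letters were not in those windows. miR-3473 was the only one of the 97 sequences with runs in 20 or more promoters, and none of the 595 other mature sequences searched reached that number.

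All 8 arrays lay on 1 slide, on which the row was the replicate number and the column the group, so that group and column cannot be told apart. The software called between 208 and 264 of the 758 miRNAs detected per array. DOCA replicate 2 and DOCA-EVs replicate 2 stood apart in the hybridisation control dmr_3, with a median signal of 981 and 1104 against 2168 to 2393 on the other 6 arrays. The 4 listed miRNAs of kidney tubule were detected on all 8 arrays, and miR-122-5p of liver was detected on none. Of 3 striated muscle miRNAs, miR-206-3p was detected on all 8 arrays and miR-1-3p and miR-133a-3p on none, and of 2 neuron miRNAs, miR-9a-5p was detected on 2 arrays and miR-124-3p on none. In such bulk tissue, fewer cells of a type and less RNA per cell cannot be told apart.

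Most of the late-named miRNAs were not detected in the cortex. Of the 110, 24 (21.8%) were called detected on at least 1 array, against 261 of the 648 other miRNAs (40.3%). On all 8 arrays 12 (10.9%) were detected, against 180 of the others (27.8%). These 12 were miR-3068-3p, miR-3084a-3p, miR-3102, miR-3473, miR-3550, miR-3562, miR-3573-3p, miR-3574, miR-3588, miR-3591, miR-6215 and miR-6216. The remaining 12 were detected on 1 to 7 arrays, and 86 were detected on none. The stricter flag for a signal well above background was set on no array for 89 of the 110, and on all 8 arrays for 10. Each of the 110 had 16 spots on each array.

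Within each group the array in the second slide row had the lower number of the 110 detected. The other 648 miRNAs followed this in SHAM, DOCA and DOCA-EVs. In UNX they did not, with 219 detected on replicate 1 and 224 on replicate 2. SHAM arrays had 22 and 21 of the 110 detected, UNX arrays 22 and 19, DOCA arrays 20 and 12, and DOCA-EVs arrays 22 and 16. The fewest were found on the arrays with the weakest hybridisation control, and the part of the control signal in this was not tested. Among the other 648 miRNAs, the share detected had its minimum of 30.2% on DOCA replicate 2 and its maximum of 37.3% on the first DOCA-EVs array. Both sets of miRNAs had their minimum on DOCA replicate 2.

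Over the undetected 86, the median processed signal of a miRNA across arrays reached at most 15.0 intensity units, the value of miR-6328. Where 1 arm of a hairpin was detected, the other arm was not always detected. Of miR-3064, miR-3068, miR-3084a, miR-3557 and miR-3573 the 3p arm was detected and the 5p arm was detected on no array. For miR-3558, the 5p arm was detected on 6 arrays and the 3p arm on 2, SHAM replicate 2 and UNX replicate 1.

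**Figure D1:**
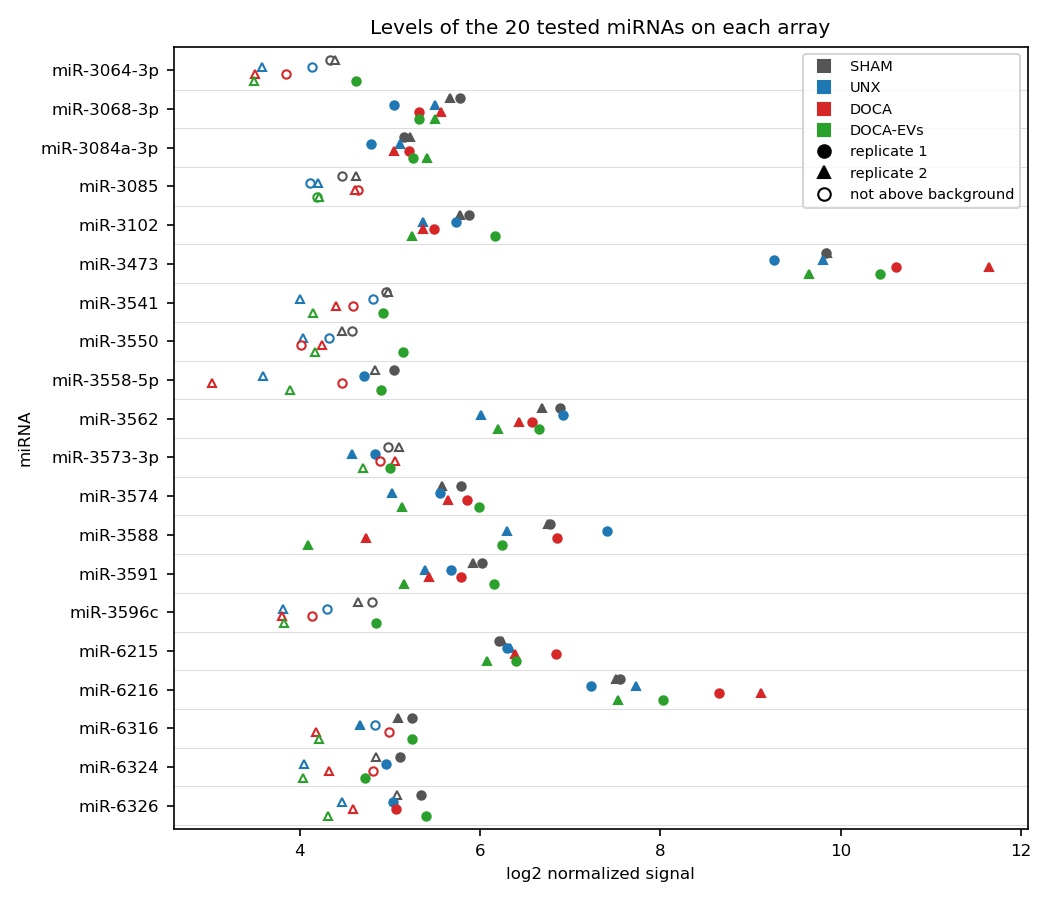
Normalised level of each of the 20 tested late-named miRNAs (rows) on each of the 8 arrays, as log2 signal on the horizontal axis. Colours give the group, symbol shapes the replicate, and open symbols a signal not well above background. The 2 DOCA arrays of miR-3473 lie at 10.62 and 11.64, to the right of its other arrays, and miR-3588 reaches from 4.10 to 7.41.

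Levels are log2 signals after division by each array's 75th percentile, and 20 of the 110 entered the test across 242 miRNAs because the software detected them on both arrays of 1 or more groups. The other 90 gave no test, and a member that is bright in 1 group alone could enter through that group. The 2 SHAM arrays lay close together, with a median distance of 0.11 between replicates over the 20. The distance was 0.50 for the UNX arrays, 0.34 for the DOCA arrays and 0.82 for the DOCA-EVs arrays. For the other 222 tested miRNAs it was 0.06, 0.16, 0.24 and 0.36 in the same order. The spread was therefore wider for the late-named miRNAs in each of the 4 groups at this scaling. With the percentile taken over all probes the order turned in DOCA (0.24 against 0.29) and DOCA-EVs (0.50 against 0.58), and with normexp and quantile normalization it turned in DOCA (0.041 against 0.069).

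The part of the signal level in this difference of spread was not tested. The comparison was repeated over miRNAs with a mean level from 4 to 7, a range chosen after seeing the data. There, 17 late-named miRNAs had median distances of 0.12 in the SHAM pair, 0.46 in the UNX pair, 0.24 in the DOCA pair and 0.85 in the DOCA-EVs pair. The 131 other miRNAs of that range had 0.08, 0.25, 0.25 and 0.40. In that range the late-named miRNAs had the wider spread in SHAM, UNX and DOCA-EVs, and not in DOCA. Levels were not matched between late-named and other miRNAs inside the range, so this comparison cannot separate the part of the level.

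Replicate 2 was below replicate 1 for 13 of the 20 in SHAM, 14 of them in UNX, 15 of them in DOCA and 17 of them in DOCA-EVs, and for 61.3%, 52.7%, 53.6% and 45.9% of the other tested miRNAs. Among miRNAs with a mean level from 4 to 7, the shares were 70.6%, 76.5%, 82.4% and 82.4% of the late-named and 67.2%, 61.8%, 64.9% and 62.6% of the others. Under the other scalings the number of the 20 with a lower replicate 2 ranged from 10 to 18 in SHAM, 10 to 15 in UNX, 9 to 19 in DOCA and 15 to 18 in DOCA-EVs. The widest gap was that of miR-3588, at 2.15 in DOCA-EVs and 2.11 in DOCA, the groups whose second arrays had the weak hybridisation control. In UNX, whose second array had a control signal of 2212, the widest gaps were 1.11 for both miR-3558-5p and miR-3588. The part of the slide row or of the control signal in these gaps was not tested.

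The tested miRNAs not yet described had mostly dim signals, and the lowest value was often on the second array of a group. miR-3562 was at 6.89 and 6.69 in SHAM, 6.92 and 6.01 in UNX, 6.58 and 6.43 in DOCA, and 6.66 and 6.20 in DOCA-EVs. miR-3102 was at 5.88 and 5.78 in SHAM, 5.74 and 5.36 in UNX, 5.49 and 5.37 in DOCA, and 6.17 and 5.25 in DOCA-EVs. The DOCA-EVs arrays of miR-3102 thus held both its highest and its lowest value.

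miR-3573-3p was at 4.98 and 5.11 in SHAM, 4.84 and 4.59 in UNX, 4.90 and 5.06 in DOCA, and 5.01 and 4.71 in DOCA-EVs. miR-3550, detected on all 8 arrays, was at 4.58 and 4.47 in SHAM, 4.32 and 4.04 in UNX, 4.01 and 4.25 in DOCA, and 5.15 and 4.17 in DOCA-EVs. Its DOCA-EVs replicate 1 was above its other 7 arrays. miR-3541, detected on 7 arrays, was at 4.96 and 4.98 in SHAM, 4.81 and 4.00 in UNX, 4.60 and 4.41 in DOCA, and 4.93 and 4.15 in DOCA-EVs. miR-3064-3p, detected on 6, was at 4.33 and 4.39 in SHAM, 4.14 and 3.59 in UNX, 3.85 and 3.51 in DOCA, and 4.62 and 3.50 in DOCA-EVs. For both, SHAM lay above the UNX arrays.

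miR-6316, miR-6324 and miR-6326, detected on 6, 6 and 7 arrays, shared the low second arrays. miR-6316 was at 5.25 and 5.09 in SHAM, 4.84 and 4.67 in UNX, 4.99 and 4.19 in DOCA, and 5.24 and 4.21 in DOCA-EVs. miR-6324 was at 5.11 and 4.85 in SHAM, 4.96 and 4.05 in UNX, 4.82 and 4.32 in DOCA, and 4.72 and 4.03 in DOCA-EVs. miR-6326 was at 5.35 and 5.08 in SHAM, 5.04 and 4.47 in UNX, 5.07 and 4.59 in DOCA, and 5.40 and 4.31 in DOCA-EVs. In RefSeq, the hairpin of miR-6326 lies 142 bases from that of miR-22 on the same strand, and miR-22-3p was detected on all 8 arrays. None of the 3 miRNAs passed the threshold in any comparison.

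Detection outside the test was scattered. miR-3099 was detected on the first arrays of SHAM, UNX and DOCA, and its log2 level ranged from 2.36, the level of a signal at the floor, to 4.91. miR-3557-3p was detected on the first arrays of SHAM, UNX and DOCA-EVs, at 4.12, 4.00 and 4.23. miR-3552 was detected on DOCA-EVs replicate 1 alone, at 3.70. These calls lay in the first slide row, whereas miR-3558-3p was detected in both rows, on SHAM replicate 2 at 4.30 and UNX replicate 1 at 4.50.

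**Figure D2:**
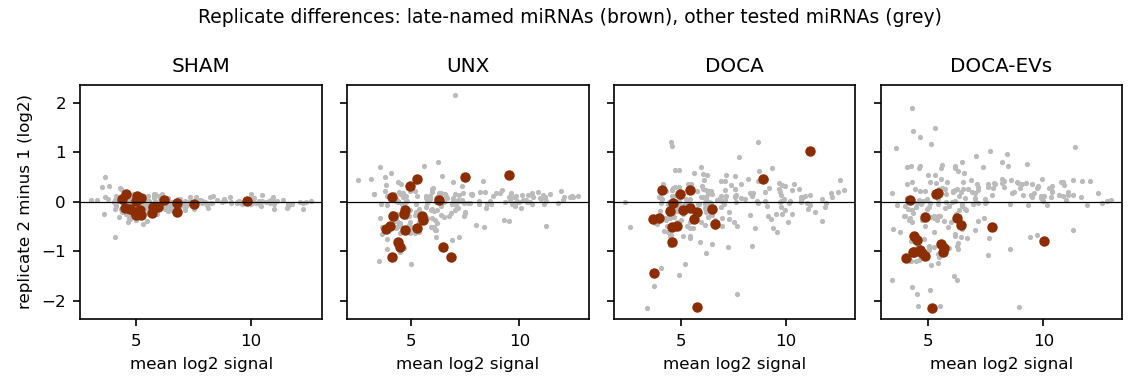
Difference between replicate 2 and replicate 1 (log2, vertical axis) against the mean log2 signal (horizontal axis) in each group, for 20 late-named miRNAs (brown) and 222 other tested miRNAs (grey). In DOCA-EVs, 17 of the 20 lie below 0.

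UNX against SHAM asked what nephrectomy changes on the standard diet. The oil vehicle, described above for UNX rats and not for SHAM rats, cannot be told apart from nephrectomy. The threshold was passed by 0 of the 20 late-named miRNAs and by 0 of all 242 (0%). At an unadjusted p under 0.05 there was 1 of the 20, miR-3085, beside 6.61% of all 242. At the scaling used, most values were on the low side in UNX: 18 of the 20 were below SHAM, with a median difference of -0.39 and a range from -0.79 to 0.09. Of all 242, 154 (63.6%) were below, with a median of -0.12. Under the other scalings the number below SHAM ranged from 14 to 20 of the 20 and their median from -0.51 to -0.02, while the median of all 242 ranged from -0.18 to 0.19. Without scaling these medians were -0.06 and 0.19, and with the percentile over all probes they were -0.07 and 0.19.

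miR-3085 had log2 levels of 4.47 and 4.63 in SHAM and 4.11 and 4.21 in UNX. The difference of -0.39 ± 0.12 (SE, n = 2 arrays a group) had an adjusted p of 0.509 by limma, and no array put it well above background. miR-3068-3p, whose 5p arm was undetected, had levels of 5.78 and 5.67 in SHAM and 5.04 and 5.50 in UNX. It was at 5.33 and 5.57 in DOCA and at 5.33 and 5.51 in DOCA-EVs. Its difference between UNX and SHAM was -0.45 ± 0.19 (limma adjusted p = 0.630), with -0.73 in the first slide row and -0.17 in the second. The UNX arrays of both were below the SHAM arrays, but the difference of miR-3068-3p in the second row was smaller than the distance between its UNX arrays.

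The 2 miRNAs on the high side were miR-6215 and miR-3588. miR-6215 had levels of 6.22 and 6.24 in SHAM and 6.30 and 6.33 in UNX, a difference of 0.08 ± 0.19 (limma adjusted p = 0.829). Its other arrays were at 6.84 and 6.38 in DOCA and at 6.41 and 6.08 in DOCA-EVs. miR-3588 had 6.77 and 6.76 in SHAM and 7.41 and 6.30 in UNX, so that the UNX arrays lay on either side of SHAM, with a difference of 0.09 ± 0.92 (limma adjusted p = 0.969). The groups did not overlap for 16 of the 20 miRNAs, beside 72.7% of all 242.

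DOCA against UNX asked what DOCA and the sodium-rich diet change after nephrectomy. The intravenous vehicle, described above for DOCA rats and not for UNX rats, cannot be told apart from them. The 2 largest differences among late-named miRNAs were those of miR-6216 and miR-3473, both higher in DOCA, and neither passed the threshold. The count past it was 0 of 20, beside 4 of all 242 (1.65%). At an unadjusted p under 0.05 there were 3 of 20, miR-6216, miR-3473 and miR-3085, all higher, beside 23.1% of all 242, and 16.5% that were higher.

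miR-6216 had log2 levels of 7.23 and 7.73 in UNX and 8.66 and 9.11 in DOCA, while its SHAM arrays were at 7.56 and 7.51. Both DOCA arrays were above every SHAM and UNX array. The difference from UNX was 1.40 ± 0.27 (SE, n = 2), a 2.64-fold higher signal, with an adjusted p of 0.0514 by limma. It was 1.42 in the first slide row and 1.38 in the second. Tested among the miRNAs detected on all 8 arrays only, its adjusted p by limma was 0.0470, and with either DOCA-EVs array left out in turn it was 0.0384, so the side of the threshold depended on these choices. Without both arrays with a weak hybridisation control the difference was 1.17 (limma adjusted p = 0.108).

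miR-3473 had levels of 9.27 and 9.80 in UNX and 10.62 and 11.64 in DOCA, with the SHAM arrays at 9.84 and 9.85. The DOCA arrays were the 2 highest of all 8, and they differed from each other by more than any pair of the SHAM and UNX arrays did. The difference from UNX was 1.60 ± 0.41, or 3.02-fold, with an adjusted p of 0.0852 by limma. It was 1.35 in the first slide row and 1.84 in the second. Without DOCA replicate 2 it was 1.08, and without DOCA replicate 1 it was 2.11.

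A list of 5 leukocyte miRNAs also had its highest summed level on the DOCA arrays. Of the 5, 4 were detected on all 8 arrays and miR-142-5p on none. Their summed log2 level was 8.23 on both SHAM arrays and 8.10 to 8.14 on UNX arrays. It was 8.88 to 9.03 on DOCA arrays and 8.45 to 8.72 on DOCA-EVs arrays. In this sum both DOCA-EVs arrays were above every SHAM and UNX array, as they were for miR-223-3p, miR-150-5p and miR-155-5p singly. For miR-142-3p they were not, since DOCA-EVs replicate 1 was at 5.85, below the UNX arrays at 6.07 and 5.92. The summed level of the 4 kidney tubule miRNAs was 12.64 to 12.68 on SHAM arrays, 12.73 to 12.85 on UNX arrays, 12.35 to 12.36 on DOCA arrays and 12.37 to 12.65 on DOCA-EVs arrays. These 4 did not move together. Mean levels in DOCA and DOCA-EVs were 10.72 and 11.06 for miR-10a-5p and 11.11 and 11.29 for miR-30a-5p. They were 9.64 and 9.48 for miR-192-5p and 9.09 and 8.92 for miR-194-5p, lower in DOCA-EVs. The part of either cell type in the levels of miR-6216 and miR-3473 was not tested.

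miR-3085 was also higher in DOCA, at 4.64 and 4.62 against 4.11 and 4.21 in UNX, by 0.47 ± 0.12 (limma adjusted p = 0.0852). Its signal was not well above background on any array, so no fold is given. The software did not detect it on DOCA replicate 2 or UNX replicate 1. Before scaling its processed signals were 24.2 and 16.3 in DOCA and 21.0 and 21.9 in UNX. DOCA replicate 2 was thus below both UNX arrays before scaling. Of miR-3574, the complement of miR-210-3p, the DOCA arrays at 5.86 and 5.65 lay above the UNX arrays at 5.55 and 5.03 and close to the SHAM arrays at 5.80 and 5.58, with a difference of 0.46 ± 0.32 (limma adjusted p = 0.502).

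On the low side were miR-3588 and miR-3558-5p. miR-3588 stood at 7.41 and 6.30 in UNX and at 6.85 and 4.74 in DOCA, so its groups overlapped, and the difference was -1.06 ± 0.92 (limma adjusted p = 0.628). It rested on DOCA replicate 2, since without that array the difference was 2.08e-05. miR-3558-5p stood at 4.71 and 3.60 in UNX and at 4.48 and 3.03 in DOCA, with a difference of -0.40 ± 0.61 (limma adjusted p = 0.820), which became 0.32 without DOCA replicate 2. Its SHAM arrays were at 5.04 and 4.84 and its DOCA-EVs arrays at 4.91 and 3.90. Over the 20, the median difference was 0.07 with 13 on the high side, and over all 242 it was 0.08 with 147 on the high side. The median of the 20 turned below 0 under 5 of 6 other scalings, over which it ranged from -0.51 to 0.03 with 10 to 18 of the 20 on the low side, and the median of all 242 ranged from -0.50 to 0.12. The groups did not overlap for 6 of the 20, beside 52.1% of all 242.

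**Figure D3:**
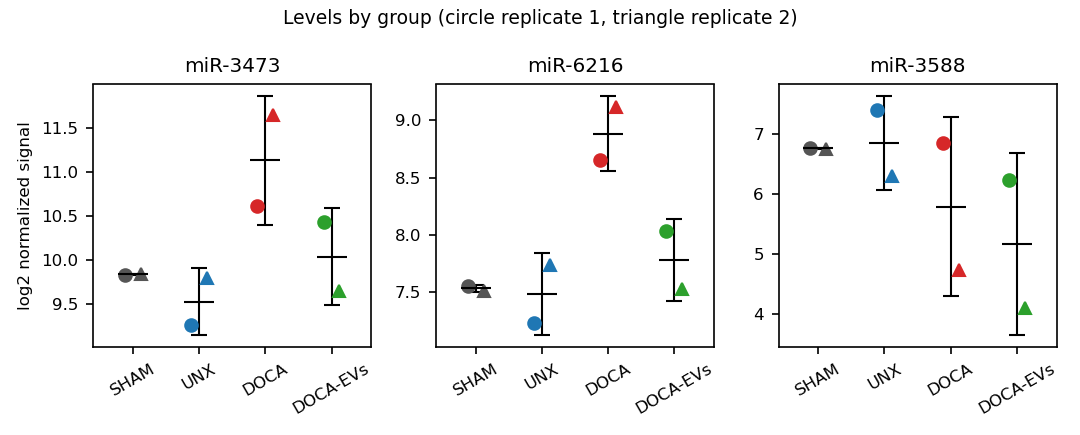
Log2 level of miR-3473, miR-6216 and miR-3588 by group, with circles for replicate 1 and triangles for replicate 2. miR-3473 and miR-6216 are highest on the 2 DOCA arrays, and miR-3588 is lowest on the second arrays of DOCA (4.74) and DOCA-EVs (4.10).

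DOCA-EVs against DOCA asked what the vesicles change in rats given DOCA and salt. miR-6216 and miR-3473 were lower in DOCA-EVs than in DOCA, and neither passed the threshold. The count past it was 0 of 20 and 0 of all 242 (0%). At an unadjusted p under 0.05 there were 3 of 20, again miR-6216, miR-3473 and miR-3085, all lower, beside 10.3% of all 242, and 6.20% that were lower. This comparison uses the same DOCA arrays as the one with UNX, so a high value on a DOCA array enters both, with opposite signs.

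miR-6216 was at 8.03 and 7.53 in DOCA-EVs, below both DOCA arrays. The first of these was above every SHAM and UNX array and the second lay inside their range. The difference from DOCA was -1.10 ± 0.27 (SE, n = 2), or 2.15-fold lower, with an adjusted p of 0.192 by limma. It was -0.62 in the first slide row and -1.58 in the second.

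miR-3473 was at 10.43 and 9.65 in DOCA-EVs. The first of these was above every SHAM and UNX array and 0.18 below DOCA replicate 1, and the second lay inside the range of the SHAM and UNX arrays. The difference was -1.09 ± 0.41 (limma adjusted p = 0.454). It was -0.18 in the first slide row and -1.99 in the second, and without DOCA replicate 2 it was -0.57.

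miR-3085 was at 4.19 and 4.22 in DOCA-EVs, a difference of -0.42 ± 0.12 from DOCA (limma adjusted p = 0.273), and its signal was not well above background in either group. It was 0.019 without scaling, and all tested miRNAs then had a median of 0.44. On the high side, miR-3550 was at 5.15 and 4.17 in DOCA-EVs and at 4.01 and 4.25 in DOCA. Its difference of 0.53 ± 0.32 (limma adjusted p = 0.769) came from DOCA-EVs replicate 1, the only array of these 4 that put it well above background. The groups overlapped, and the difference was 0.04 without that array and -0.07 in the second slide row. miR-3084a-3p was at 5.26 and 5.41 against 5.21 and 5.05 in DOCA, 5.16 and 5.23 in SHAM and 4.80 and 5.12 in UNX, and differed from DOCA by 0.21 ± 0.16 (limma adjusted p = 0.844). Over the 20, 10 were on each side of 0, with a median of 0.00 beside 0.00 for all 242. The groups did not overlap for 4 of the 20, beside 24.4% of all 242.

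**Figure D4:**
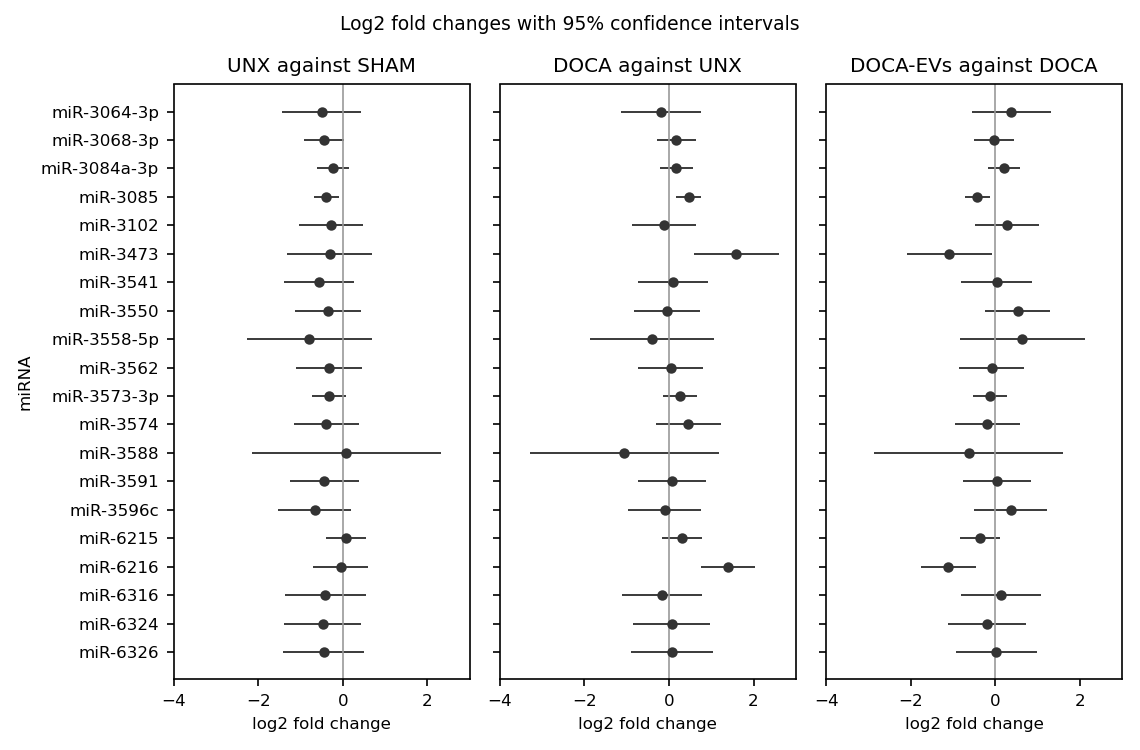
Log2 fold change of the 20 tested late-named miRNAs in the comparisons between neighbouring groups, with 95% confidence intervals from limma. The DOCA against UNX intervals of miR-6216 and miR-3473 lie above 0, and those of DOCA-EVs against DOCA lie below 0.

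The 4 arrays of rats given DOCA and salt were also set against the 4 arrays of rats on the standard diet, with nephrectomy in only 1 of the latter 2 groups. With miR-3584-5p left out, no late-named miRNA passed the threshold (0 of 20, beside 6.61% of all 242). At an unadjusted p under 0.05 there were 2 of 20, both higher, beside 24.0% of all 242, and 16.5% that were higher. They were miR-6216, with a difference of 0.82 ± 0.19 (SE, n = 4) and an adjusted p of 0.0610 by limma, and miR-3473, with 0.90 ± 0.29 (limma adjusted p = 0.128). The first slide row gave 0.95 and 0.97, and the second gave 0.70 and 0.82. miR-3588 differed by -1.33 ± 0.65 (limma adjusted p = 0.289), with -0.54 in the first row and -2.11 in the second. miR-3558-5p differed by -0.47 ± 0.43 (limma adjusted p = 0.644). The arrays of the 2 diets overlapped for all 20, beside 14.5% of all 242 that did not overlap.

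The mirror miRNAs allow a comparison with their partner on the same arrays. Of the 97 matched names, 32 had a run of at least 18 bases complementary to another mature rat miRNA, and 5 of these were detected. They were miR-3574, miR-3588, miR-3591, miR-3596c and miR-3557-3p. The last, a complement of miR-378a-5p over 22 bases, was detected on 3 arrays and was outside the test, while miR-378a-5p was detected on all 8. The hairpins of miR-3574, miR-3591 and miR-3596c overlap that of their partner on the opposite strand in RefSeq. Among the 27 undetected ones, the partner was detected on all 8 arrays for 7, on 1 to 7 arrays for 5 and on none for 14, and it was not on the array for 1. The 7 were miR-3556a, miR-3556b and miR-3587, which are complements of miR-29a-3p, miR-29c-3p and miR-29b-3p, repressors of collagen messages, miR-3590-5p, the complement of miR-130a-3p, and miR-3596a, miR-3596b and miR-3596d, complements of let-7 miRNAs. Of the 4 miR-3596 names, miR-3596c alone was detected, on 5 arrays.

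miR-3591 was detected on all 8 arrays while its partner miR-122-5p, the abundant miRNA of hepatocytes, was detected on none. miR-3591 stood at 6.02 and 5.92 in SHAM, 5.68 and 5.39 in UNX, 5.79 and 5.44 in DOCA and 6.16 and 5.16 in DOCA-EVs. In no comparison did it differ by more than 0.43. miR-122-3p, from the other arm of the partner's hairpin, was detected on 7 arrays.

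miR-3574 and miR-210-3p, a miRNA induced by hypoxia, were both detected on all 8 arrays. miR-210-3p stood at 5.62 and 5.49 in DOCA and 6.41 and 6.25 in DOCA-EVs, a difference of 0.78 ± 0.13 (SE, n = 2; limma adjusted p = 0.0688). miR-3574 had 5.86 and 5.65 in DOCA and 5.99 and 5.14 in DOCA-EVs, a difference of -0.19 ± 0.32 (limma adjusted p = 0.996). The difference between the 2 changes was not tested.

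miR-3588 and miR-125b-5p gave the plainest difference in spread. miR-125b-5p, known for roles in cell proliferation and differentiation, ranged from 10.04 to 10.40 over the 8 arrays. miR-3588 ranged from 4.10 to 7.41, with 6.24 on DOCA-EVs replicate 1, and its lowest values were on the arrays with the weak hybridisation control, on which miR-125b-5p had its highest, 10.39 and 10.40. miR-3596c, the complement of let-7e-5p, was at 4.80 and 4.65 in SHAM, 4.31 and 3.82 in UNX, 4.13 and 3.80 in DOCA, and 4.84 and 3.83 in DOCA-EVs, while let-7e-5p passed the threshold in no comparison and lay between 9.46 and 9.95.

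**Figure D5:**
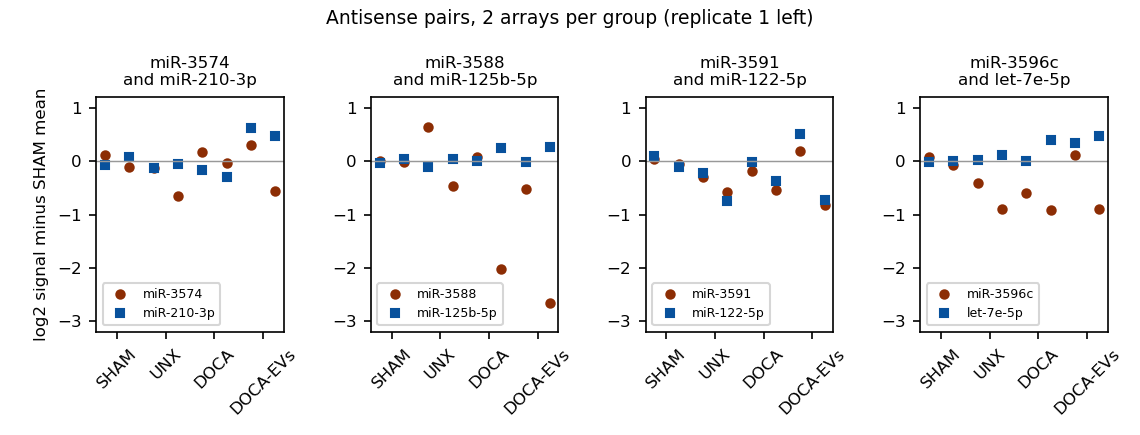
Log2 signal of each late-named miRNA and its complementary partner on the 8 arrays, each with its own SHAM mean subtracted, replicate 1 on the left of each pair. miR-3588 is lowest on the second DOCA and DOCA-EVs arrays, and the points of miR-122-5p are signals that were detected on no array.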

How the data were processed

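MiRNAs of rat renal cortex were measured with 8 one-colour Agilent arrays, each given 100 ng of RNA with an integrity number above 8, per the labels' protocols. The slide (design 070154) was read by the authors with protocol miRNA_1105_Oct12 of Feature Extraction 11.5.1.1, per the file headers. The deposited processed signal is a spot intensity from which the software subtracted background, without scaling across arrays, and the deposited series table differed from it by 0 at most. Raw spot signals, background signals and a total signal for each miRNA are deposited as intensity too, and detection and outlier flags as 0 or 1.

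Unflagged spots were averaged per probe, divided by the array's 75th percentile over the 271 probes well above background on all arrays, floored at 2.57 (the mean SD of negative control spots), summed per miRNA and put on the log2 scale. MiRNAs detected on both arrays of 1 or more groups entered the fit, 242 of 758, and 516 were left out. Differences were tested two-sided with limma 3.58.1 (R 4.3.3), fitting a mean for each group over all 8 arrays, 4 residual and 2.18 prior degrees of freedom, Benjamini-Hochberg adjustment over the 242, and a threshold of 0.05. With 2 arrays against 2, exact permutation allows no p under 0.333 and was not run. No fold is given where a group was not well above background. The script was tested on simulated data. The number of arrays limits the precision.

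Replicate numbers follow the slide row, and same-numbered arrays deviated together: the correlation of deviations over 242 miRNAs was 0.245 to 0.557 in all 6 pairs of groups. The values on every array are given for all 20 tested members, and in each comparison those past the threshold or, with none, the 2 with the smallest p in each direction. miR-3473 and miR-3085 at an unadjusted p under 0.05, miR-3574 and the miRNAs of the pair section were added after their values were seen. The members, gene lists, alternatives and tests were chosen with earlier results of these data known. Alternatives were other scalings, filters, signals and designs. The files hold no mean spot signal, so the normexp alternative, with an offset of 50, used the median spot signal. Coordinates are not printed, since the headers' assembly differs from that of the sequence tables. Strain and age are not given in the sources used here.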

Additional observations from a re-analysis of the deposited data

How the results depend on the processing

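Counts of late-named miRNAs past the threshold stayed at 0 in UNX against SHAM, DOCA-EVs against DOCA and the pooled comparison under every alternative run, and in DOCA against UNX the count became 1 (miR-6216) among miRNAs detected on all 8 arrays only, and 0 to 1 with an array left out, 1 without either DOCA-EVs array in turn. The replicate block changed no call of a late-named miRNA, with a count of 0 in each comparison. The number past the threshold among all tested miRNAs ranged over the alternatives from 0 to 20 in DOCA against UNX (4 in the fit reported), from 0 to 5 in DOCA-EVs against DOCA (0) and from 0 to 26 in the pooled comparison (16). In DOCA against UNX it was 0 with any SHAM, UNX or DOCA array left out and 15 with either DOCA-EVs array left out, and in the pooled comparison it was 0 with either SHAM array left out and 26 without DOCA-EVs replicate 1. With well above background as the call, 21 miRNAs were detected in place of 24. With normexp and quantile normalization the median distance between replicates was 0.024 for the SHAM arrays, 0.064 for the UNX arrays, 0.041 for the DOCA arrays and 0.094 for the DOCA-EVs arrays, against 0.021, 0.046, 0.069 and 0.088 for the other tested miRNAs, and the cause was not tested. Directions turned for values that had not passed the threshold. In UNX against SHAM, the software's total signal gave -0.029 for miR-6215 and -0.027 for miR-3588, normexp gave 0.0075 for miR-3085, and leaving out an array gave -0.47 to 0.64 for miR-3588. In DOCA against UNX, leaving out an array gave -2.11 to 2.08e-05 for miR-3588 and -1.12 to 0.32 for miR-3558-5p, and without DOCA replicate 2 and DOCA-EVs replicate 2 the values were 2.08e-05 and 0.32. In DOCA-EVs against DOCA, miR-3085 was at 0.019 without scaling and at 0.68 with the total signal. In the pooled comparison miR-3558-5p was at 0.14 without these 2 arrays. Scaling moved the median of all tested miRNAs, to -0.50 in DOCA against UNX and 0.44 in DOCA-EVs against DOCA without scaling. Relative to that median, miR-3473 in DOCA against UNX ranged from 1.34 to 1.59 and miR-6216 from 0.84 to 1.39 over the scalings. The median 95% interval of a late-named miRNA reached 0.79 to each side of its difference, against 0.47 for all tested miRNAs.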
